A study of Mus musculus with 15 samples.

Results

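The chemokine and chemokine receptor genes of the mouse uterus were followed across 15 one-color arrays. They were chosen by name: 67 probes, for 51 genes, carried a symbol starting with Ccl, Cxcl, Cx3cl, Xcl, Ccr, Cxcr, Cx3cr or Xcr and a number. Of those 51 genes, 47 had a probe that the scanner software scored as well above background on at least 2 of 3 arrays in at least 1 of 5 groups, and they are the members described here, 33 ligands and 14 receptors out of 34760 probes that passed the same filter. Where several probes measured a gene, the brightest was used. Ccr8, Ccl22, Ccr1 and Cxcl11 did not pass.

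All mice were adult ovariectomized females (10 weeks or older) rested for 10 to 14 days, so that the saline group also lacked ovarian hormones. They received 100 μl saline, or 250 ng estradiol (E2) or estriol (E3) in 100 μl saline, by intraperitoneal injection, and each group had 3 arrays. The groups were saline at 24 hr, E2 at 2 hr, E3 at 2 hr, E2 at 24 hr and E3 at 24 hr, with no saline group at 2 hr. The saline, E3 and 24 hr E2 mice were C57bl6/J, whereas the 2 hr E2 mice were C57bl6/Jx129 with a WT Esr1 genotype, and their arrays were scanned on another scanner on another day. In every comparison with the 2 hr E2 group, treatment, strain, scanner and day cannot be told apart, and against saline both 2 hr groups also differ in collection time. Only saline replicate 3 and the 2 hr E3 arrays shared a slide across groups. In every other comparison, those at 24 hr included, slide cannot be told apart from treatment or time. According to the labels each uterus was homogenized on its own, while the study's methods describe RNA from pooled tissue, so the replicate error may be partly technical.

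Chemokines are small secreted proteins that attract leukocytes by binding G protein-coupled receptors, and the spacing of their first cysteines names the CC, CXC, CX3C and XC families. Some are induced during inflammation and draw monocytes, neutrophils or eosinophils into tissue, while others are made constitutively and place lymphocytes in lymph nodes or at mucosal surfaces. In the uterus, estrogen is known for bringing water, eosinophils and macrophages into the stroma and later for stimulating epithelial growth. In whole tissue, fewer cells of a type and less RNA per cell cannot be told apart.

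The results turn on 3 members whose promoters are printed here: Ccl12, a monocyte attractant higher at 2 hr, Ccl20, an epithelial ligand higher at 24 hr after either hormone, and Ccl28, another epithelial ligand, higher at 24 hr after E2. Each window runs from 250 bases before to 50 bases after the RefSeq transcription start (assembly GRCm38.p6), 5′ to 3′ on the strand of the gene, and capitals mark the match to a tight NF-kappaB motif (GGG, any 3 bases, TTCC) in Ccl20 and to the AP-1 motif (TGANTCA) in Ccl28. The Ccl12 window is chr11:82101595-82101894 (plus strand), that of Ccl20 is chr1:83116516-83116815 (plus strand) and that of Ccl28 is chr13:119623569-119623868 (plus strand).
Ccl12: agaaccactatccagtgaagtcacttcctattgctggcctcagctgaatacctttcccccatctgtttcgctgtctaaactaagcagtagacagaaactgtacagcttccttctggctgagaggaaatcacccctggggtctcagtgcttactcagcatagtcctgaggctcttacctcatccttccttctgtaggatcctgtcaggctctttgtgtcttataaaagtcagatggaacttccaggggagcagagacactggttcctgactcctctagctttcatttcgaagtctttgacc
Ccl20: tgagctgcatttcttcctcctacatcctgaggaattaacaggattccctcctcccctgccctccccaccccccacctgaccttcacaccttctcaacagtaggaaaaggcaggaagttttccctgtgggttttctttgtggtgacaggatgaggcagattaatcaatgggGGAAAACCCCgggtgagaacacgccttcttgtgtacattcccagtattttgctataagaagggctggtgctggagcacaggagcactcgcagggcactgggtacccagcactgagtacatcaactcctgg
Ccl28: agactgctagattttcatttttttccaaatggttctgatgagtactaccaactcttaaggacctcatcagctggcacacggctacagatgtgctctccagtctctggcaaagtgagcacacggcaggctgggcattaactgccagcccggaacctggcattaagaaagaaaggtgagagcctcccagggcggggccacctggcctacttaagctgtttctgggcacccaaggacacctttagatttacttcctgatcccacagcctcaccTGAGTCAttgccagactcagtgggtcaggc

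Motifs were searched on both strands. The Ccl20 match, on the opposite strand, starts 80 bases before the transcription start, and the Ccl28 match lies 20 bases after it. Over 32851 promoter windows of the same length, 5.56% held the tight NF-kappaB motif, 7.81% the AP-1 motif, 3.44% the interferon response motif (GAAA, any 2 bases, GAAA) and 0.07% the full estrogen response element (GGTCA, any 3 bases, TGACC). A loose NF-kappaB motif (GGG, any 5 bases, CC), which every tight match also fits, was in 50.8% of them. Among the 35 members with a window in the table, 8 held the tight NF-kappaB motif, 18 the loose one, 9 the AP-1 motif, 3 the interferon response motif and 0 the full estrogen response element. The Ccl12 window held none of the 5 motifs.

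Expression is given as log2 of the scanner's processed signal minus the 75th percentile of its array, so that 0 is the level of that percentile. The percentile lay between 2991 and 4422 intensity units, 77.7% to 81.6% of probes per array were well above background, and the dimmest such signal lay between -8.29 and -7.77. Pairs of replicate arrays correlated at r of 0.982 to 0.995 over all probes. The tissue label held: at least 11 of 12 uterine markers were well above background on every array. RNA of other tissues was also present. Summed exocrine pancreas markers reached 535 times the 75th percentile on E3 2 hr replicate 2 and 254 times on E2 24 hr replicate 2, and liver markers were 7.16 to 26.6 times it on the saline arrays but at most 0.321 times it on the 2 hr E2 arrays.

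Lymphocyte markers stood apart on 3 arrays. The sum of 12 B cell markers was 14.6 times the 75th percentile on saline replicate 2, 30.5 on E3 2 hr replicate 3 and 17.1 on E3 24 hr replicate 3, against 0.946 to 10.2 on the 12 other arrays, and the sum of 13 T cell markers was 7.21 to 9.94 on the 3 arrays against 2.19 to 4.44. Of the 12, E3 2 hr replicate 2 (10.2) and E2 24 hr replicate 1 (9.21) were the next highest in B cell markers. Macrophage and monocyte markers (12 genes) summed to 117 to 152 on the 3 arrays and to 58.7 to 99.2 elsewhere. Neutrophil markers (7 genes) summed to 3.79 to 8.73 against 0.516 to 2.48, and dendritic cell markers (3 genes) to 1.46 to 1.85 against 0.389 to 0.934. The 3 arrays are called lymphocyte-rich here for short, and each count of members called is also given without them, which leaves 2 arrays each for saline, E3 2 hr and E3 24 hr.

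Saline replicate 2 was the highest of its group for 35 of 47 members, E3 2 hr replicate 3 for 36 of 46 and E3 24 hr replicate 3 for 40 of 47, where the same arrays were highest for 28.7%, 33.3% and 23.9% of all tested probes. In 15 members the lymphocyte-rich array stood at least 2-fold above the others in all 3 groups, a pattern found in 1.83% of all probes. The 15 included Cxcl13, Ccl17, Ccr6, Ccr7 and Cxcr3, ligands and receptors of B and T cell homing, the interferon-inducible Cxcl9 and Cxcl10, and the monocyte and neutrophil attractants Ccl2, Ccl7, Ccl8 and Cxcl5. For Cxcl13, which guides B cells into follicles, the saline arrays read -4.26, 0.75 and -4.77, the 2 hr E3 arrays -2.73, -0.91 and 0.33, and the 24 hr E3 arrays -4.66, -3.67 and -0.19. In each of these groups 1 array was higher than the rest, and the group means describe no single array.

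**Figure D1:**
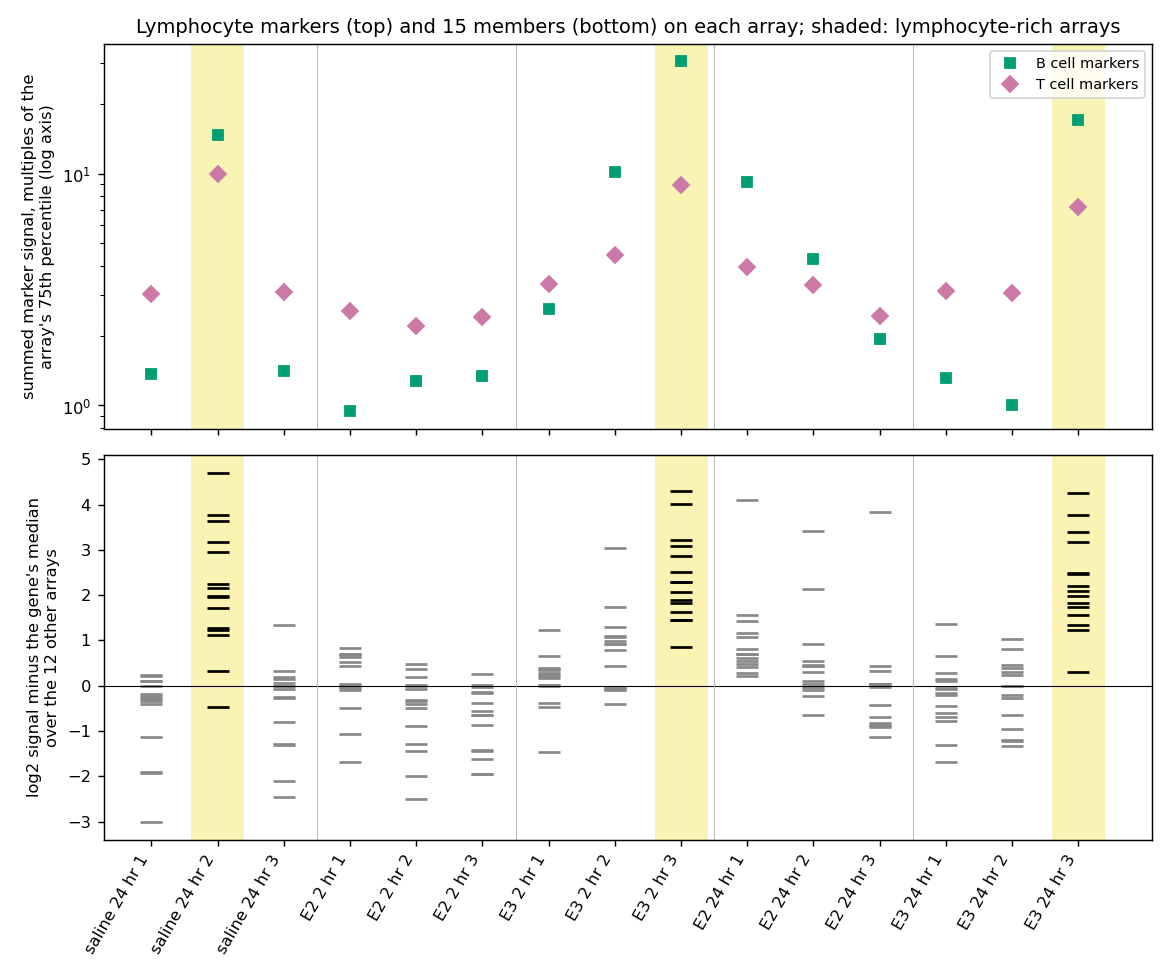
Top, summed signal of 12 B cell and 13 T cell markers on each of the 15 arrays, in multiples of the array's 75th percentile on a log axis. Bottom, for the 15 members named by their gap of at least 2-fold in all 3 groups, log2 signal minus the gene's median over the 12 other arrays, 1 dash per gene. On the shaded arrays the median dash is at 1.98 (saline replicate 2), 2.30 (E3 2 hr replicate 3) and 2.09 (E3 24 hr replicate 3), and the 12 other arrays have medians from -0.65 to 0.91.

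Changes were tested with limma on all 15 arrays, and a member was called where p was below 0.001 and the change was at least 2-fold. Adjusted p-values are Benjamini-Hochberg values over all tested probes. At 2 hr E2 raised Ccl12 and Cxcl16 and lowered Cxcr4, 3 of 47 members, while 21.2% of all tested probes were called in this comparison (10.7% higher, 10.5% lower). After E3 at 2 hr 1 of 47 members was called, Ccl12, which rose, against 13.8% of all probes (4.68% higher, 9.1% lower). At 24 hr E2 raised Ccl20, Ccl28 and Ccl11 and lowered Cxcl12, Cxcl14 and Ccl27, 6 of 47 against 18.1% (6.92% higher, 11.2% lower). E3 at 24 hr raised Ccl20, 1 of 47 against 3.83% (1.84% higher, 1.98% lower). With all 15 arrays the share of members called was below that of all probes in each of these comparisons. Without the lymphocyte-rich arrays the counts were 5, 4, 11 and 1, against 20.2%, 12.6%, 17.8% and 3.44% of all probes, and at 24 hr after E2 the members' share (23.4%) was then the higher.

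**Figure D2:**
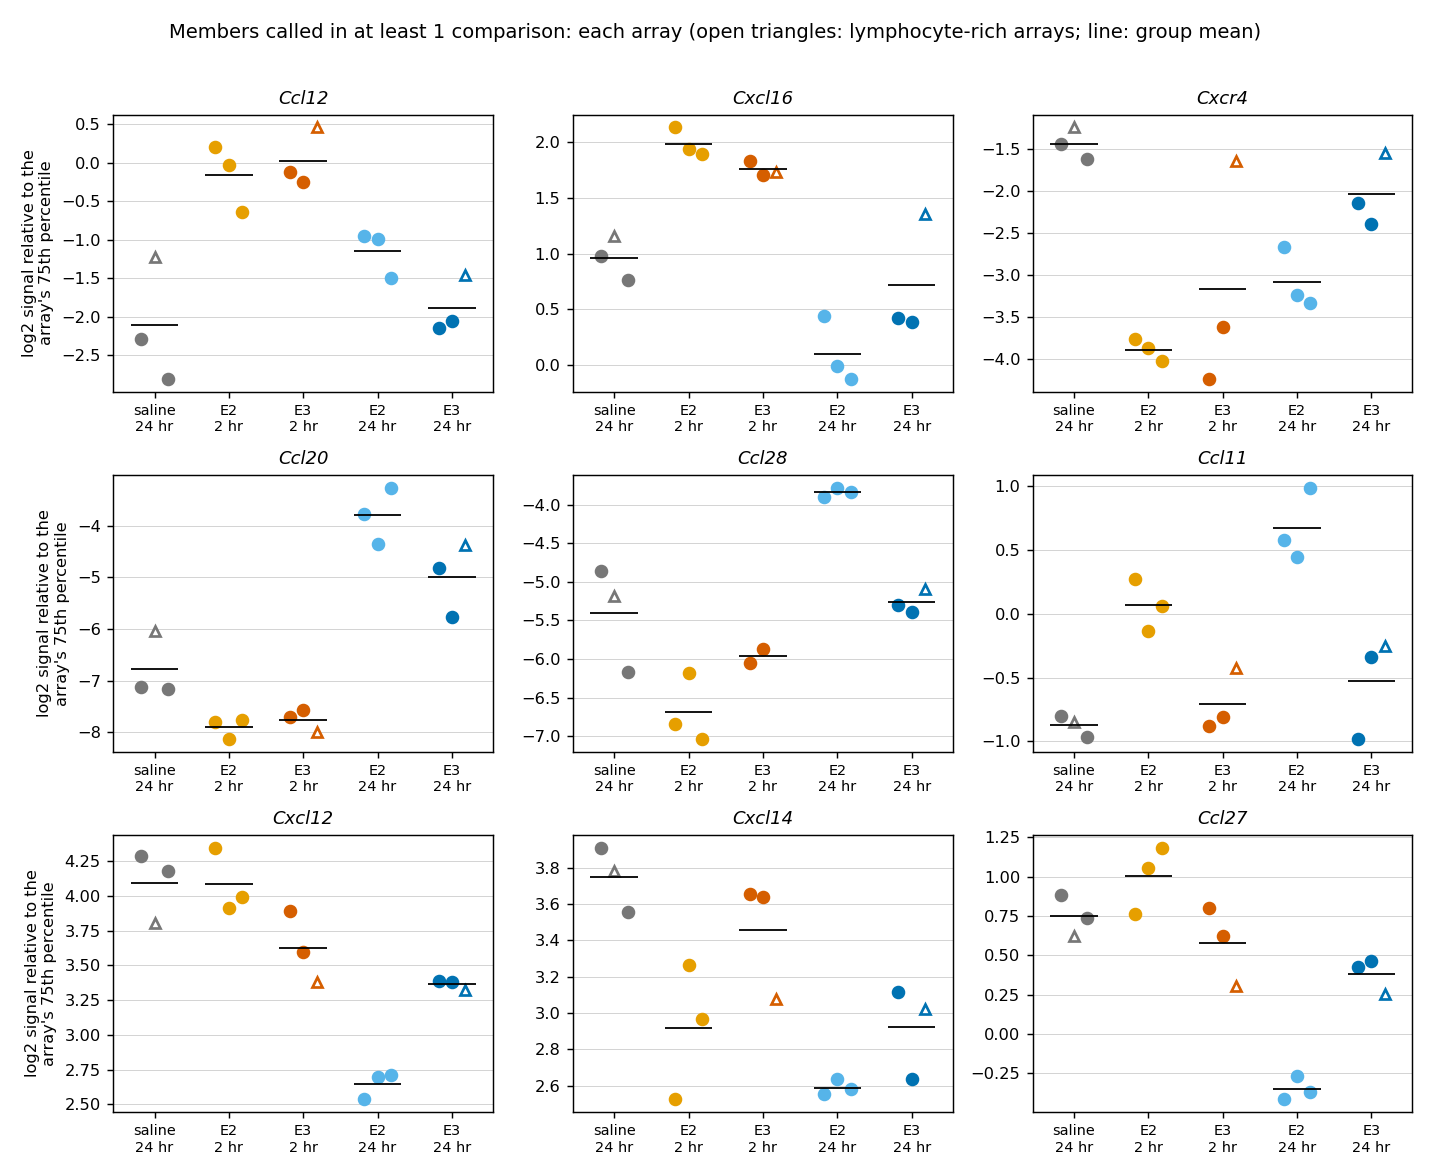
Log2 signal relative to the array's 75th percentile for the 9 members called in at least 1 comparison, 1 point per array and 1 column per group, with open triangles for the 3 lymphocyte-rich arrays and a line at the group mean (3 arrays, except 2 for Ccl28 at 2 hr after E3, where 1 spot was flagged). Ccl12 is high in both 2 hr groups, Ccl20 in both 24 hr hormone groups, and Ccl28 and Ccl11 in the 24 hr E2 group.

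Among the ligands that attract monocytes, Ccl12 rose at 2 hr after either hormone. Ccl12 (monocyte chemotactic protein 5) binds the receptor Ccr2 on monocytes, and its probe lies at chr11:82184783-82184842 of the array annotation (mm7), which does not say exon or UTR. The saline arrays read -2.29, -1.23 and -2.81, the 2 hr E2 arrays 0.20, -0.03 and -0.65, and the 2 hr E3 arrays -0.12, -0.25 and 0.46. Both hormone groups lay wholly above saline. The difference from saline was 1.95 ± 0.37 (SE) after E2, a 3.87-fold increase (adjusted p = 0.000588), and 2.14 ± 0.37 after E3, a 4.40-fold increase (adjusted p = 0.000435). Saline replicate 3 shared its slide with the 2 hr E3 arrays, and with slide as a block the E3 difference was 2.84, past 2-fold but not the p threshold. The call after E2 was lost when saline replicate 1 or 3 or E2 2 hr replicate 1 or 2 was left out, with changes of 1.60 to 1.89 and p of 0.00101 to 0.00131.

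By 24 hr Ccl12 read -0.96, -0.996 and -1.50 after E2 and -2.15, -2.05 and -1.46 after E3, and both sets of arrays overlapped those of saline, the E2 arrays only through the lymphocyte-rich saline replicate 2 (-1.23). The E2 group differed from saline by 0.96 ± 0.37 and the E3 group by 0.22 ± 0.37, neither called, but the E2 difference was 1.40 and called without the lymphocyte-rich arrays (adjusted p = 0.00159), as it was without saline replicate 2 alone. Between 2 and 24 hr after E3, Ccl12 fell by 1.92 on the log2 scale (SE 0.37, adjusted p = 0.000804), a call lost without E3 2 hr replicate 3 or E3 24 hr replicate 1 or 2 (-1.84 to -1.70).

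Ccl2 and Ccl7, which also bind Ccr2, had differences of the same sign that did not pass the rule on all arrays. Ccl2 (monocyte chemotactic protein 1) read -2.04, 0.22 and -1.39 in saline, 0.73, 0.10 and -0.09 after E2 for 2 hr, and 0.07, 0.88 and 1.96 after E3 for 2 hr. The highest saline array, replicate 2, is lymphocyte-rich and overlapped both treated groups. The differences were 1.32 ± 0.73 for E2 (adjusted p = 0.138) and 2.04 ± 0.73 for E3 (adjusted p = 0.0351), and without the lymphocyte-rich arrays they were 1.96 (adjusted p = 0.000795) and 2.19 (adjusted p = 0.00127), both called.

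Ccl7 (monocyte chemotactic protein 3) read -4.49, -1.94 and -3.93 in saline, -0.78, -1.49 and -1.65 at 2 hr after E2, -1.47, -1.04 and -0.02 at 2 hr after E3, and -1.06, -1.03 and -1.46 at 24 hr after E2. Each of these 3 hormone groups lay above every saline array. The differences were 2.15, 2.61 and 2.27 (SE 0.64, adjusted p of 0.0115, 0.00481 and 0.0086), and 2.90, 2.96 and 3.03 without the lymphocyte-rich arrays, where all 3 were called. Its other probe gave 2.09, 2.59 and 2.20 on all arrays. At 24 hr after E3 Ccl7 read -3.16, -2.70 and -1.17, overlapping saline, a difference of 1.11 that was not called.

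The monocyte and macrophage marker sum was 64.0 to 117 times the 75th percentile in saline, 58.7 to 88.9 after E2 and 82.1 to 138 after E3, and 0 of 12 were called higher and 1 lower (Cd14) at 2 hr after E2, with 0 of 12 called after E3. The rest of the group, Ccl3, Ccl4, Ccl5, Ccl6, Ccl8 and Ccl9, was not called in any of the 7 comparisons. Over the 9 monocyte-attracting and inflammatory CC ligands the median difference from saline was -0.26 at 2 hr after E2 and 0.77 at 2 hr after E3, against -0.07 and -0.11 over all tested probes. With the lymphocyte-rich arrays left out the medians were 0.71 and 0.77, so the sign after E2 turned. Of the 3 lymphocyte-rich arrays the 2 hr E3 group holds the one highest in B cell markers, saline holds the one highest in T cell markers, and the 2 hr E2 group holds none.

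**Figure D3:**
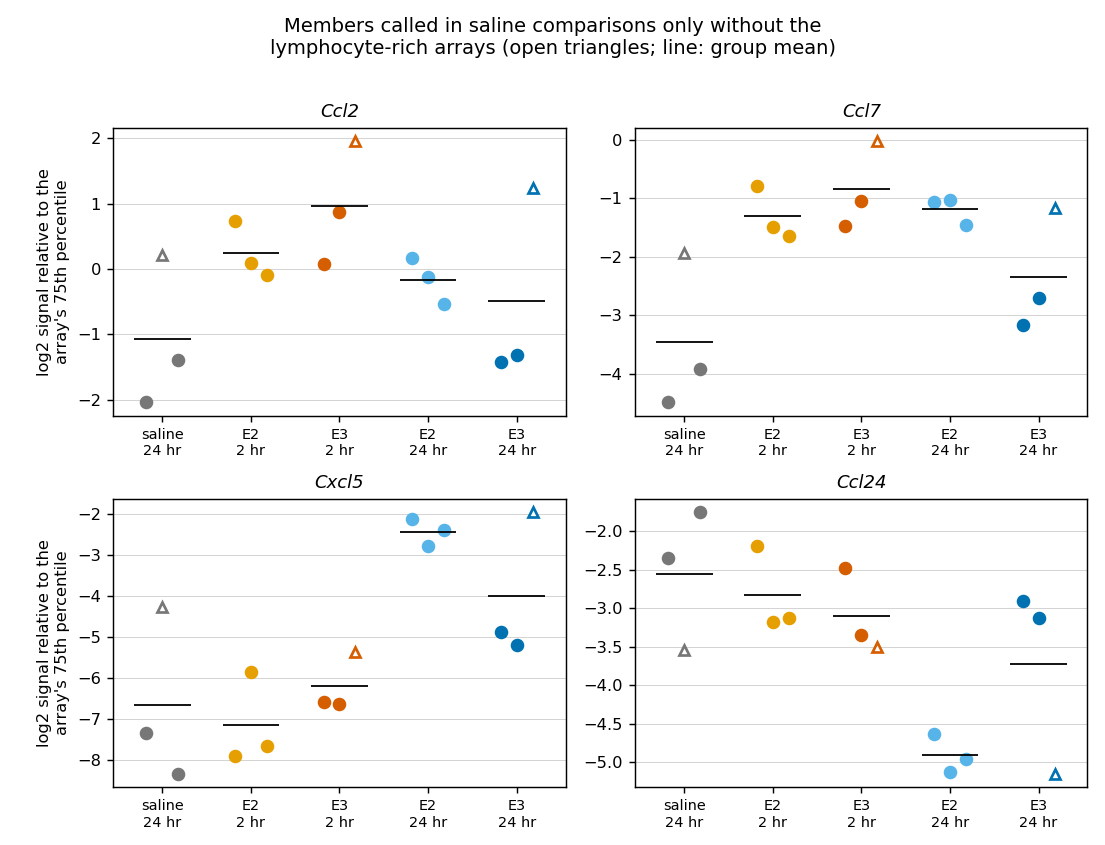
Log2 signal relative to the array's 75th percentile for Ccl2, Ccl7, Cxcl5 and Ccl24, 1 point per array, with open triangles for the 3 lymphocyte-rich arrays and a line at the mean of 3. In saline the triangle lies above both circles for Ccl2 (0.22), Ccl7 (-1.94) and Cxcl5 (-4.27) and below them for Ccl24 (-3.55).

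Cxcl16, a membrane-anchored ligand of Cxcr6 that also serves as a scavenger receptor, read 0.98, 1.16 and 0.76 in saline and 2.13, 1.94 and 1.90 at 2 hr after E2, with no overlap. The increase was 1.02 ± 0.23, just past 2-fold (2.03-fold, adjusted p = 0.00193). E3 arrays at 2 hr read 1.83, 1.70 and 1.74, also above saline, with a difference of 0.79 ± 0.23 (adjusted p = 0.0123) that did not reach 2-fold. At 24 hr the E2 arrays read 0.44, -0.01 and -0.12 and the E3 arrays 0.42, 0.39 and 1.36, and between 2 and 24 hr after E3 Cxcl16 fell by 1.03 on the log2 scale (adjusted p = 0.00214). A second probe gave only 0.36 at 2 hr after E2, and averaging both gave 0.69, not called, so the probes disagree. The 2 hr E2 call was lost when any 1 saline or 2 hr E2 array was left out, and also without any 1 of the 2 hr E3 arrays or without E2 24 hr replicate 2, which enter only the estimate of spread. That call was also lost under each other scaling of the arrays. The later decrease was lost without any 1 of several arrays, E3 24 hr replicate 2 giving the smallest value (-0.87). The second probe gave -0.50 for that decrease and averaging both gave -0.77, not called.

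Cxcr4, the receptor of Cxcl12 on leukocytes and progenitor cells, was the only receptor called with all 15 arrays. Its saline arrays read -1.44, -1.24 and -1.62 and its 2 hr E2 arrays -3.76, -3.87 and -4.02, with more than 2 log2 units between the groups. The decrease was 2.45 ± 0.50 in size (5.46-fold lower, adjusted p = 0.000976), and the second probe gave -2.89. Leaving out any 1 saline or 2 hr E2 array kept the difference between -2.54 and -2.35 but moved p above 0.001, to at most 0.00178. E3 at 2 hr gave -4.23, -3.61 and -1.64. All 3 lay below saline, and the lymphocyte-rich array was the highest. The difference was -1.72 ± 0.50 (adjusted p = 0.0121), and -2.39 without the lymphocyte-rich arrays (adjusted p = 0.000114), where it was called. At 24 hr the E2 arrays read -2.66, -3.24 and -3.33, a difference of -1.64 ± 0.50 (adjusted p = 0.0126), called without the lymphocyte-rich arrays at -1.54, and the E3 arrays read -2.15, -2.40 and -1.55, a difference of -0.59 ± 0.50.

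The probe of Ccl20 lies at chr1:83327742-83327801 (mm7). Ccl20, an epithelial ligand for Ccr6 on dendritic cells and lymphocytes, had the largest called increase of any member against saline at 24 hr. Its saline arrays read -7.12, -6.04 and -7.17, near the dimmest detectable signal, the 24 hr E2 arrays -3.76, -4.35 and -3.26, and the 24 hr E3 arrays -4.81, -5.78 and -4.38. Both hormone groups lay above every saline array and the E2 arrays lay above every E3 array. E2 raised Ccl20 by 2.99 ± 0.38 (7.93-fold, adjusted p = 3.35e-05) and E3 by 1.79 ± 0.38 (3.45-fold, adjusted p = 0.00412). The E3 call was lost when saline replicate 1 or 3 or E3 24 hr replicate 1 or 3 was left out (1.48 to 1.70), while the E2 call was kept without any 1 array. With normexp background correction the differences were 1.63 and 1.61, neither called.

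At 2 hr Ccl20 was not well above background on any E2 array (-7.80, -8.14 and -7.76) and on 1 of 3 E3 arrays (-7.70, -7.58 and -8.00). All 6 lay below the saline arrays. The E2 group was at least 2.10-fold lower than saline when the dimmest signal detected for any probe of the array stood in for lower values. The limma fit on the values as read gave -1.12 (adjusted p = 0.0225, not called). After E3 Ccl20 rose by 2.77 ± 0.38 between 2 and 24 hr (adjusted p = 6.45e-05), with 1 of the 3 arrays at 2 hr well above background. With normexp background correction Ccl20 rose by 1.94 there, not called, where the median of all probes was 0.49. Its receptor Ccr6 read between -4.62 and -2.32 on the 12 other arrays and was highest on the lymphocyte-rich ones, at -0.29, -0.83 and -1.56.

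Ccl28, a mucosal ligand for Ccr10 and Ccr3, rose at 24 hr after E2 and was not called after E3. It read -4.86, -5.18 and -6.16 in saline, -3.90, -3.78 and -3.83 at 24 hr after E2, and -5.30, -5.39 and -5.10 at 24 hr after E3. The E2 arrays lay within 0.12 of each other and above all others, and the E3 arrays fell within the range of saline. E2 raised it by 1.57 ± 0.30 (2.96-fold, adjusted p = 0.000776), and E3 differed from saline by 0.14 ± 0.30 (95% interval -0.50 to 0.78). At 2 hr E2 arrays read -6.85, -6.18 and -7.04, below saline by 1.29 ± 0.30 (adjusted p = 0.0027) with p just above the threshold, at 0.00113. E3 arrays at 2 hr read -6.05 and -5.87, the value of replicate 3 having been dropped for a flagged spot. The 24 hr E2 call was lost without E2 24 hr replicate 2 (1.54) or 3 (1.56). With normexp background correction the differences from saline at 24 hr were 1.07 after E2 and 0.90 after E3, neither called, where the median of all probes was -0.04 and 0.31.

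Ccl11 (eotaxin), which attracts eosinophils through Ccr3, also rose at 24 hr after E2 and was not called after E3. It read -0.80, -0.85 and -0.96 in saline, 0.58, 0.45 and 0.99 at 24 hr after E2, and -0.98, -0.34 and -0.25 at 24 hr after E3. Every E2 array was above every saline and E3 array. The E2 increase was 1.54 ± 0.20 (2.91-fold, adjusted p = 4.16e-05), called under every alternative tried, and the E3 difference was 0.35 ± 0.20 (95% interval -0.10 to 0.79). At 2 hr Ccl11 read 0.27, -0.13 and 0.06 after E2, 0.94 ± 0.20 above saline and just short of 2-fold (adjusted p = 0.00155), and -0.88, -0.81 and -0.42 after E3, a difference of 0.17. Eosinophil markers (5 genes tested) summed to 0.878 to 1.20 times the 75th percentile at 24 hr after E2 and 0.652 to 0.981 in saline, and 1 of 5 was called higher (Alox15, 1.07). Alox15 also rose after E3 (1.14), where the marker sum was 0.923 to 1.43 and Ccl11 was not called. The list did not rise as a whole: the median difference of the 5 eosinophil markers from saline was -0.08 after E2 and -0.47 after E3. Their part in the Ccl11 change was not tested.

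Ccl24 (eotaxin 2), another Ccr3 ligand, had the opposite sign. It read -2.35, -3.55 and -1.75 in saline and -4.64, -5.13 and -4.95 at 24 hr after E2, with no overlap. The difference of -2.36 ± 0.58 (adjusted p = 0.00385) missed the p threshold, while a second, dimmer probe gave -2.63 and was called. Without the lymphocyte-rich arrays the difference was -2.86 (adjusted p = 0.000146) and called. The 24 hr E3 arrays read -2.91, -3.12 and -5.15, the last being the lymphocyte-rich array. On all 3 lymphocyte-rich arrays Ccl24 was the lowest of its group.

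3 constitutive ligands fell at 24 hr after E2. Cxcl12 (stromal cell-derived factor 1), the Cxcr4 ligand made by stroma, with its probe at chr6:117207552-117207611 (mm7), read 4.29, 3.81 and 4.18 in saline and 2.54, 2.70 and 2.71 after E2, a decrease with a log2 difference of -1.44 ± 0.16 (2.71-fold lower, adjusted p = 9.33e-06), and its second probe gave -1.33. Cxcl14, a homeostatic ligand of epithelium and stroma, read 3.91, 3.78 and 3.56 in saline and 2.55, 2.63 and 2.58 after E2, a difference of -1.16 ± 0.20 (2.24-fold lower, adjusted p = 0.000345). Ccl27, a ligand for Ccr10 best known in skin and now named Ccl27a, read 0.88, 0.62 and 0.74 in saline and -0.42, -0.27 and -0.37 after E2, a difference of -1.10 ± 0.14 (2.14-fold lower, adjusted p = 2.85e-05). In none of the 3 did the E2 arrays overlap saline, and each call held under every alternative tried.

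After E3 for 24 hr, Cxcl12 read 3.39, 3.38 and 3.32, a difference of -0.73 ± 0.16 (adjusted p = 0.00415), Cxcl14 read 3.12, 2.64 and 3.02 (-0.83 ± 0.20, adjusted p = 0.00848) and Ccl27 read 0.43, 0.47 and 0.25 (-0.37). The E3 arrays were below all saline arrays for each of the 3, and none of the differences reached 2-fold. Endothelial markers (6 genes) summed to 9.80 to 11.2 times the 75th percentile at 24 hr after E2 and 13.2 to 14.4 in saline, with 1 of 6 called lower (Cdh5), and fat markers (5 genes) to 6.48 to 11 and 11.3 to 54.3, with 0 of 5 called. Liver markers (9 genes) summed to 7.16 to 26.6 in saline, 0.391 to 0.505 at 24 hr after E2 and 0.460 to 0.756 at 24 hr after E3, with 9 of 9 and 8 of 9 called lower. The part of these tissues in the decreases was not tested.

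Cxcl5, a neutrophil attractant made by epithelium, was the member with the largest difference at 24 hr after E2. It read -7.34, -4.27 and -8.33 in saline, where replicate 3 was not well above background, and -2.11, -2.79 and -2.39 after E2. The E2 arrays all exceeded saline by more than 1 log2 unit. The difference was 4.22 ± 1.03 (adjusted p = 0.00355), and 5.40 without the lymphocyte-rich arrays (adjusted p = 4.98e-05), where it was called and 1 of the 2 saline arrays was not well above background. After E3 the arrays read -4.87, -5.20 and -1.95, a difference of 2.64 ± 1.03 (adjusted p = 0.0659). Neutrophil markers (7 genes) summed to 0.647 to 8.73 in saline, 1.34 to 2.48 after E2 and 0.681 to 5.37 after E3, and 1 of 7 was called higher after each hormone (Mpo). The list did not rise as a whole: the median difference of the 7 from saline was -0.50 after E2 and -0.21 after E3.

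**Figure D4:**
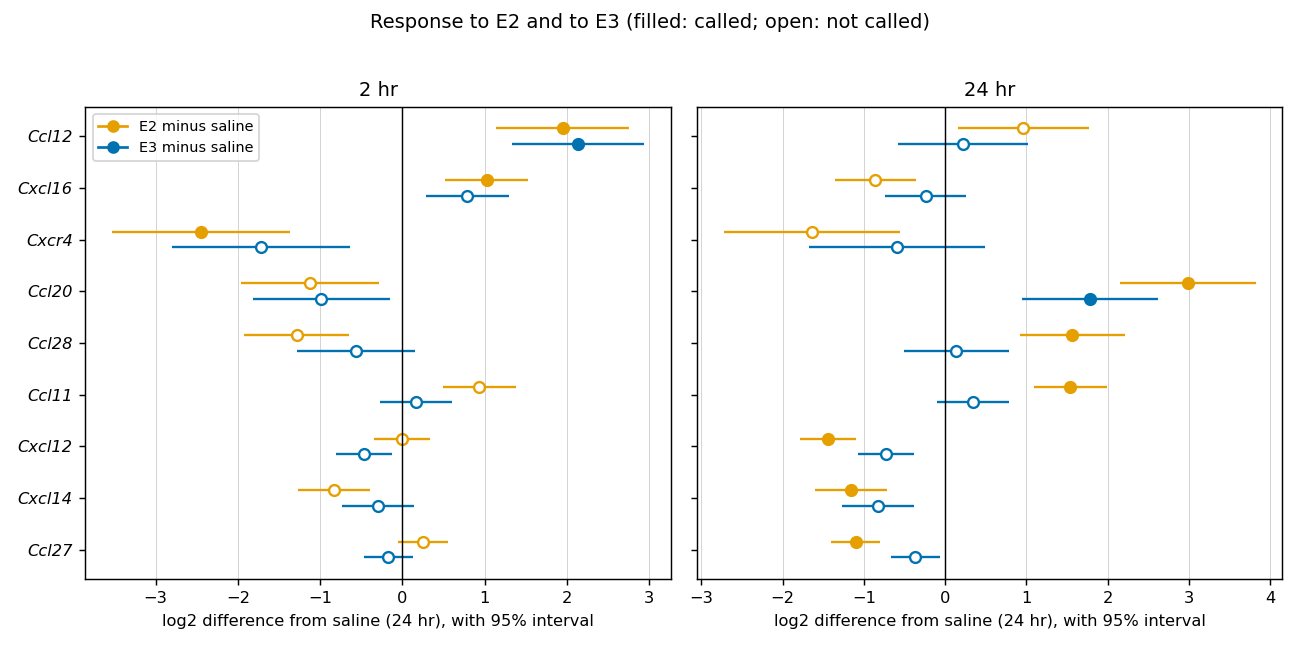
Log2 difference from saline (horizontal axis, with 95% intervals) for the 9 called members after E2 and after E3, at 2 hr (left) and 24 hr (right), with filled points for calls. Of the 9, 6 were called at 24 hr after E2 and so were chosen by that comparison, and Ccl20 is at 2.99 after E2 and 1.79 after E3.

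The hormones were set against each other at each time, at the same dose. At 2 hr 0 of 47 members were called between E3 and E2 by limma, against 7.51% of all probes, while 16 of 47 had an unadjusted p below 0.05, as did 51.5% of all probes. Ccl12 differed by 0.19 (95% interval -0.62 to 0.99), Cxcl16 by -0.23 (interval -0.73 to 0.27) and Cxcr4 by 0.72 (interval -0.36 to 1.81), each with overlapping arrays except Cxcl16. Ccl11 was 0.77 ± 0.20 lower after E3 (adjusted p = 0.00916), below 2-fold. Without the lymphocyte-rich arrays Cxcl13 (3.63, adjusted p = 0.00366) and the receptor-like Ccr1l1 were called higher after E3, 2 of 47 against 6.89% of all probes. Ccr1l1 passed the background filter only through the 2 hr E3 group and was not well above background on any 2 hr E2 array. On all arrays it was at least 1.57-fold higher after E3 and not called. The filter favored that direction, so neither its call nor its fold tests the hormones. The same holds for its calls under the alternatives below. B cell markers were 2.61 to 30.5 on the 2 hr E3 arrays and 0.946 to 1.35 on the 2 hr E2 arrays, and their part in the Cxcl13 difference was not tested.

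At 24 hr 2 of 47 members were called, against 4.85% of all probes (2.78% higher, 2.07% lower), and both were lower after E3 than after E2. Ccl11 was lower by 1.20 on the log2 scale (log2 difference -1.20 ± 0.20, 2.29-fold, adjusted p = 0.000829) and Ccl28 by 1.43 (log2 difference -1.43 ± 0.30, 2.69-fold, adjusted p = 0.0033). Without E3 24 hr replicate 1, the lowest of the 3 for Ccl11, that gene differed by -0.97, under 2-fold. The Ccl28 call was lost when any 1 of the 6 arrays was left out (-1.51 to -1.36), and under normexp background correction its difference was -0.17. Ccl20 was 1.20 ± 0.38 lower after E3 (adjusted p = 0.0278), and Ccl27 (0.73, adjusted p = 0.00157) and Cxcl12 (0.71, adjusted p = 0.00381) were higher, all without overlap and none called. Without the lymphocyte-rich arrays Ccl11 stayed called, Ccl28 did not (-1.51), and Ccl7 (-1.75) and Ccl24 (1.89) were called, 3 members against 4.77% of all probes.

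Between 2 and 24 hr after E3, 3 of 47 members were called, against 16.1% of all probes (9.63% higher, 6.48% lower). Ccl20 was higher at 24 hr and Ccl12 and Cxcl16 were lower. Without the lymphocyte-rich arrays Ccl2 (-1.84), Ccl7 (-1.68) and Cxcr4 (1.65) were called as well, 6 of 47 against 15.8%. The 2 E2 groups differ in strain and scanner and their time difference was not tested. Their arrays do not overlap for Ccl20 (-8.14 to -7.76 at 2 hr, -4.35 to -3.26 at 24 hr) or Ccl12 (-0.65 to 0.20 at 2 hr, -1.50 to -0.96 at 24 hr), the same order as after E3.

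**Figure D5:**
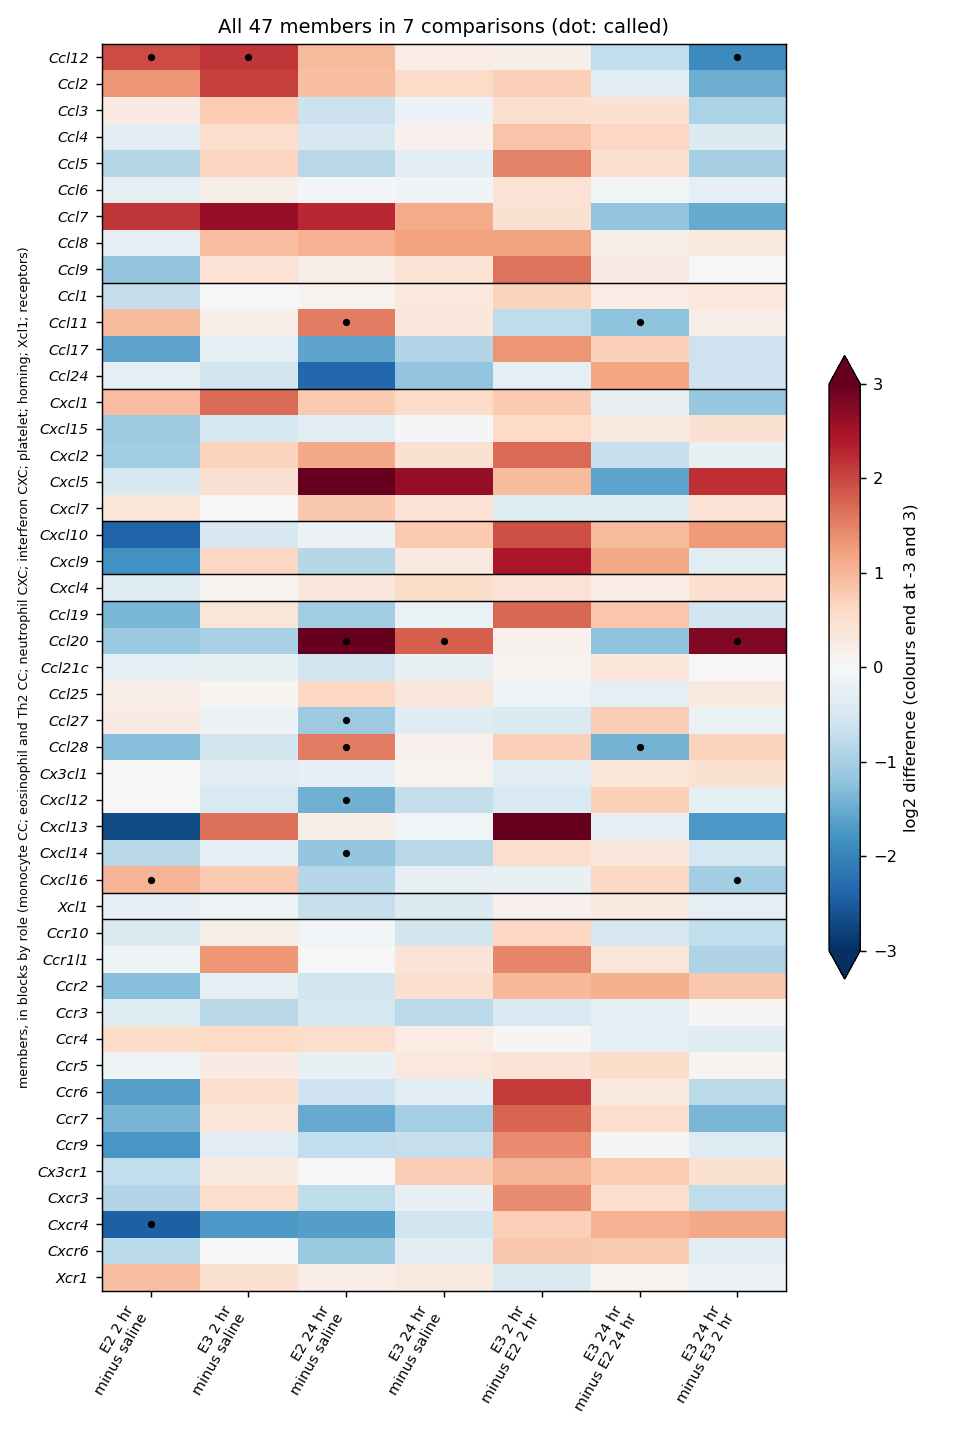
Log2 difference of each of the 47 members (rows, in blocks by role) in 7 comparisons (columns), red for higher and blue for lower in the first-named group, with colors ending at -3 and 3 and a dot for each call. Dots are in 16 cells, and the block of receptors at the bottom holds 1 of them, Cxcr4 at 2 hr after E2.

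Over all 47 members the median difference was -0.38 at 2 hr after E2 and 0.18 at 2 hr after E3, with medians of -0.07 and -0.11 over all tested probes, and without the lymphocyte-rich arrays the members' medians were -0.15 and 0.19. At 24 hr the medians were -0.23 after E2 and 0.12 after E3 (0.06 and 0.12 without those arrays), against -0.06 and -0.01 over all probes. Arrays of the 2 groups did not overlap for 5 members higher and 13 lower at 2 hr after E2 (31.5% and 35.6% of all probes), 4 and 3 after E3 (22.1% and 36% of all probes), 7 and 9 at 24 hr after E2 (30.3% and 38.5%) and 4 and 4 after E3 (23.1% and 28.3%).

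The 14 receptors had a median difference of -0.77 at 2 hr after E2 and 0.26 after E3, against -0.07 and -0.11 over all tested probes, and of -0.40 and 0.22 without the lymphocyte-rich arrays. On all arrays B cell markers had medians of -1.58 and 1.11 and T cell markers of -0.80 and 0.26, and their part in the receptor medians was not tested. Ccr2, the receptor of Ccl2, Ccl7 and Ccl12, read -0.15, 1.07 and 0.24 in saline and -0.52, -1.38 and -0.74 at 2 hr after E2, below every saline array by a mean of 1.27 (adjusted p = 0.0146), not called. A second, dimmer Ccr2 probe gave -0.04 there, so the probes disagree. Ccr7, the receptor of Ccl19 and Ccl21 on naive T cells and dendritic cells, ranged from -6.45 to -3.24 on all arrays but saline replicate 2 (-2.14) and E3 2 hr replicate 3 (-2.45). Ccr3, the eosinophil receptor, was not called and ranged from -5.35 to -3.32 over all 15 arrays. Ccr4, Ccr10 and Ccr1l1 were dim, each not well above background on at least 1 array. Cx3cl1 (fractalkine) ranged from 1.49 to 2.15 and Ccl21c, a lymph node ligand, from 3.39 to 4.28, and neither was called.

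The interferon-inducible ligands Cxcl9 and Cxcl10, which act on Cxcr3 of activated T cells, were at -1.81 ± 1.24 and -2.41 ± 0.92 relative to saline at 2 hr after E2, not called, with Cxcl10 below every saline array (adjusted p = 0.0367). The differences were -0.54 and -1.71 without the lymphocyte-rich arrays, neither called. Cxcl9 read -3.40, 0.50 and -3.21 in saline, the highest being the lymphocyte-rich array, and -3.12, -4.41 and -4.00 at 2 hr after E2, with overlap. Cxcl10 read -1.32, 1.07 and -0.76 in saline, -1.98, -3.42 and -2.85 at 2 hr after E2 and -2.38, -1.01 and 0.92 at 2 hr after E3. The 3 E3 arrays span more than 3 log2 units, from below to within the saline range. Among 15 other interferon-inducible genes, 4 fell at 2 hr after E2 (Ifit1 -1.20, Ifit2 -2.12, Ifit3 -1.88, Rsad2 -2.30) and 0 rose, and at 2 hr after E3 3 fell (Ifit2 -1.31, Ifit3 -1.20, Rsad2 -1.43) and Usp18 rose (1.11). Of all probes, 10.5% were called lower and 10.7% higher at 2 hr after E2, and 9.1% and 4.68% after E3. The 15 interferon-inducible genes summed to 57.7 to 85.5 times the 75th percentile on the lymphocyte-rich arrays and 21.9 to 49.7 on the 12 others. None of the 15 was called at 24 hr after either hormone, and 5 rose between 2 and 24 hr after E3, where 9.63% of all probes were called higher.

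Chemokine receptors and related genes filed under other symbols were taken from a list of 12, of which 8 were tested. Cmkor1, now Ackr3, the scavenging receptor for Cxcl12, read 1.28, 1.12 and 1.25 in saline, 4.48, 3.98 and 3.92 at 2 hr after E2, and 3.73, 3.56 and 3.17 at 2 hr after E3, with no overlap. It rose by 2.91 ± 0.16 after E2 (adjusted p = 4.33e-08) and 2.27 ± 0.16 after E3 (adjusted p = 5.21e-07), and at 24 hr its arrays read 0.69 to 1.02 after E2 and 0.73 to 0.87 after E3. Ccbp2, now Ackr2, a scavenger of inflammatory CC ligands, rose by 1.82 and 1.95 at 2 hr, while Ccrl2 fell by 2.25 and 1.48 on the log2 scale. Of all probes, 21.2% were called at 2 hr after E2 and 13.8% after E3. At 24 hr 1 of the 8, Ccrl2, was called, lower after E2 (-1.10), and 0 after E3, against 18.1% and 3.83% of all probes. These values sat beside Cxcl12 itself, which at 2 hr differed from saline by -0.01 ± 0.16 after E2 and -0.47 ± 0.16 after E3.

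Of 13 genes of chemokine receptor signaling, Rgs2, a regulator of G protein signaling, fell at 2 hr by 2.20 after E2 and 2.32 after E3 on the log2 scale, Rgs16 rose by 1.39 after E3, and at 24 hr after E2 Rgs1 (-1.54) and Rgs16 (-1.07) fell. Of 20 inducers and signaling genes of inflammation, Csf3, a growth factor of neutrophils, rose at 2 hr by 1.82 after E2 and 1.27 after E3, Tlr4 fell by 1.16 and 1.53 on the log2 scale, and Csf2 fell after E2 (-1.36), with 0 of 20 called at 24 hr after either hormone. Of all probes, 21.2% were called at 2 hr after E2 and 13.8% after E3. The shares at 24 hr were 18.1% after E2, 3.83% after E3 and 4.85% between the hormones. Natural killer cell markers (7 genes) had 4 called lower at 24 hr after E2 and summed to 0.778 to 0.818 there against 1.83 to 2.07 in saline, beside the Xcl1 arrays, a ligand those cells make, at -2.64, -2.73 and -2.90 against -2.16, -1.71 and -2.28 in saline (adjusted p = 0.0126, not called). Of the other marker lists, mast cells (7 genes tested) had 2 called higher at 2 hr after E2 and 1 after E3, 1 lower at 24 hr after E2 (a sum of 1.35 to 1.46 against 2.07 to 2.74 in saline) and 4 higher after E3 than after E2 at 24 hr, skeletal muscle (6 genes) 2 lower at 2 hr and 2 higher at 24 hr after E2, and dendritic cells (3 genes) 0 against saline. A list of lymph node genes (6 genes) summed to 9.2 to 12.7 on the lymphocyte-rich arrays and 1.63 to 5.93 on the 12 others, but Ltb, a cytokine gene that lymphocytes express, made up 8.88 to 12.1 of the former. The 5 other genes summed to 0.32 to 0.64 and 0.0595 to 0.507, so those ranges overlapped.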

How the data were processed

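Uterine RNA was hybridized to one-color Agilent whole mouse 4x44 arrays, 3 per group. The deposited files hold intensity per spot from Agilent Feature Extraction 9.5.3.1, already background-subtracted and detrended within the array by the authors' scanner software, with no scaling between arrays. A deposited table of the whole series held the same intensity values (largest relative difference 0). Of 45018 spots, 43379 were not controls. Here outlier-flagged spots (1893 over all arrays) were dropped, leaving 744 missing probe values, intensities were put on the log2 scale, the 75th percentile of each array was subtracted, and spots of 1 probe were averaged. Of 41174 probes, 34760 (84.4%) passed the background filter. R 4.3.3 and limma 3.58.1 fitted 5 group means with 10 residual and 2.06 prior degrees of freedom, which was tested on simulated data. The number of arrays limits the precision.

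Members called in any of 7 comparisons were named with every array, others by ranges, and other genes only from the lists. Ccl2, Ccl7, Cxcl5, Ccl24, Cxcl13, Ccr2, Cxcl9, Cxcl10 and Xcl1, outside that rule, were given by array after their values were seen. The members, lists and tests were chosen with earlier results of these data known. Lists covered lymphocytes, other leukocytes, endothelium, fat, liver, pancreas, muscle, uterus and signaling genes. Of the 47 members, 45 matched a RefSeq transcript by accession, 3 under another current symbol, and promoters came from RefSeq (GRCm38.p6). Annotation in the file headers follows mm7. Alternatives covered background correction, scaling, filters, thresholds, probe choice, blocks for slide and replicate number, and leaving out each array. The alternatives without the lymphocyte-rich arrays and with slide as a fixed block were chosen after seeing the data.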

Additional observations from a re-analysis of the deposited data

Results flagged for a closer look

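The effects of E2 and E3 at 24 hr differed by a direct test for 2 of 47 members, Ccl11 and Ccl28, against 4.85% of all probes. For Ccl11 the E3 arrays (-0.98, -0.34 and -0.25) lay below the E2 arrays (0.58, 0.45 and 0.99), a log2 difference of -1.20 (adjusted p = 0.000829). For Ccl28 the E3 arrays (-5.30, -5.39 and -5.10) lay below the E2 arrays (-3.90, -3.78 and -3.83), a difference of -1.43 (adjusted p = 0.0033). The Ccl28 call was lost when any 1 of the 6 arrays was left out, without the 3 lymphocyte-rich arrays (-1.51) and under normexp (-0.17), and the Ccl11 call without E3 24 hr replicate 1 (-0.97). The 2 groups were on separate slides, so slide and hormone cannot be told apart.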

How the results depend on the processing

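Of 462 values of the 16 calls recomputed under the alternatives, 397 stayed called, 65 were no longer called and 0 changed sign. Ccl11, Ccl27, Cxcl12 and Cxcl14 at 24 hr after E2 stayed called in all 29 alternatives. Several alternatives could hardly lose a call, so these totals overstate how hard the calls were tried. The series table held identical values, and p alone and adjusted p below 0.05 with 2-fold were looser rules. Most fits without 1 array left out one from outside the comparison, which enters only the estimate of spread. The number of members called moved by more than 1.5 times as follows, and the cause was not tested. With an adjusted p below 0.05 and 2-fold, the counts were 10 instead of 3 (E2 2 hr), 5 instead of 1 (E3 2 hr), 11 instead of 6 (E2 24 hr) and 4 instead of 0 (E3 against E2 at 2 hr), against 24%, 15.8%, 21.1% and 10.2% of all probes. With p alone they were 5 (E2 2 hr), 2 instead of 1 (E3 24 hr) and 4 instead of 2 (E3 against E2 at 24 hr), against 41.1%, 15.9% and 18.7%. With normexp they were 2 (E3 2 hr), 0 (E3 24 hr) and 1 (E3 against E2 at 24 hr), against 6.55%, 1.62% and 2.73%, and normexp moved the median of all probes to 0.31 for E3 24 hr against saline and to 0.44 and 0.49 for E3 24 hr against E2 24 hr and E3 2 hr. E3 24 hr fell to 0 without scaling, without the 2 hr E2 arrays in the fit and with the replicate number as a block. Without the lymphocyte-rich arrays counts were 5 (E2 2 hr), 4 (E3 2 hr), 11 (E2 24 hr), 2 (E3 against E2 at 2 hr) and 6 instead of 3 (E3 at 24 against 2 hr), and with slide as a fixed block E3 2 hr had 0. Leaving out 1 array at a time gave 0 to 4 (E2 2 hr, 0 without saline replicate 1 or E2 replicate 1 and 1 without E2 replicate 3), 1 to 3 (E3 2 hr, 3 without E3 replicate 3 and 2 without saline replicate 2 or E3 24 hr replicate 3), 5 to 10 (E2 24 hr, highest without saline replicate 2), 0 to 1 (E3 24 hr, 0 without saline replicate 1 or 3 or E3 replicate 1 or 3), 0 to 1 (E3 against E2 at 2 hr, 1 without E3 replicate 3), 0 to 2 (E3 against E2 at 24 hr, 0 without E3 replicate 1 and 1 without any other of the 6 arrays) and 1 to 3 (E3 at 24 against 2 hr, 1 without E3 24 hr replicate 1 or 2).

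Same-numbered arrays of different groups did not deviate together (r of -0.47 to 0.55 over 30 pairs, 10 above 0.1), so the numbers do not pair the arrays. Beside E3 24 hr, where Ccl20 kept a change of 1.79 but lost its call, the replicate block took 1 call, Cxcl16, from each of E2 2 hr (2 left) and E3 at 24 against 2 hr (2 left) and changed no other. The scalings gave calls of E2 2 hr of 2 higher and 1 lower (as reported), 2 and 2 (quantile), 1 and 3 (percentile over probes detected on all arrays) or 1 and 2 (no scaling). Cxcl16 was called only under the scaling reported, and with quantile Xcr1 (1.10) was called higher in its place. Ccl20 in saline and both 2 hr groups, Cxcl2, Ccl1, Ccr1l1, Ccr4 and Ccr10 lay near the dimmest detectable signal, where changes are least certain.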
